A study of Mus musculus with 8 samples.

Results

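The autophagy machinery genes described here are 37 genes chosen by name: the kinase complex that starts autophagy, the lipid kinase complex that marks the growing membrane, membrane and lipid-transfer proteins, the conjugation enzymes, the ATG4 proteases, the ATG8 proteins, receptors for selective cargo, and the transcription factors TFEB and TFE3. All 37 were found among the 24196 genes named in the files. For each gene the transcript with the largest summed exon density over the libraries was used. The samples were livers of wild-type (WT) C57/BL6 mice kept for a week in 12 h of light and 12 h of darkness and then in constant darkness for 1 day before collection began. RNA of 3 animals was pooled for each of 8 libraries, 1 library per time, every 6 h from circadian time CT23 to CT65. No group differed in genotype or treatment, the pools hide the spread between animals, and the labels used here give no sex or age. Over 2 internal days each clock phase was therefore sampled with 2 libraries: CT23 (CT23 and CT47, the end of the subjective night), CT5 (CT29 and CT53, the middle of the subjective day), CT11 (CT35 and CT59, the end of the subjective day) and CT17 (CT41 and CT65, the middle of the subjective night).

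Autophagy encloses cytoplasm, protein aggregates or organelles in a double membrane, the autophagosome, which fuses with lysosomes so that its content is degraded and reused. A kinase complex around ULK1 starts the process, a PI3-kinase complex around beclin 1 supplies the lipid PI3P, and a ubiquitin-like conjugation system attaches ATG8 proteins (the LC3 and GABARAP subfamilies) to the membrane, where they hold cargo receptors such as p62. In the liver, autophagy supplies amino acids and fatty acids during fasting and removes damaged mitochondria, and mice eat mostly at night.

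Each library was sequenced from poly-A RNA. Between 11.7 and 13.9 M reads lay behind the density scale in 7 libraries and 22.9 M in CT35, and 6.52 to 7.58 M reads fell in named genes in those 7 libraries, against 14.4 M in CT35. The share of gene reads in introns was 11.04% to 12.6% in the 7 and 6.94% in CT35, so CT35 stood apart in both. The tissue label fitted the markers: 10 hepatocyte genes summed to 47360 to 75200 RPKM, highest in CT35, while Kupffer cell markers summed to 76.7 to 129 RPKM, endothelial markers to 64.9 to 104, stellate cell markers to 57.8 to 79.7, cholangiocyte markers to 15.7 to 47.02 (the highest in CT35), lymphocyte markers to 2.48 to 5.93 and erythroid markers to 79.5 to 150, with no found marker at 0 in all libraries. Their part in the results was not tested, and in such bulk tissue fewer cells of a type and less RNA per cell cannot be told apart. The core clock was rhythmic as a check of the times: Arntl peaked at 21.6 h and Per2 at 14.7 h (limma, adjusted p = 0.0013 and 0.00242).

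Levels are given as RPKM, a read density per transcript length and library depth, so that genes of unlike length can be compared. Gabarap had the highest mean of the 37 genes at 231 ± 21.0 RPKM (SD over 8 libraries), followed by Sqstm1 at 170 ± 38.0, Bnip3 at 84.1 ± 21.9, Gabarapl1 at 80.4 ± 35.1, Map1lc3b at 42.4 ± 8.01 and Becn1 at 36.7 ± 6.47. Bnip3 and Gabarapl1 did not differ beyond their spread. Atg4a at 1.28 ± 0.673 and Atg10 at 0.741 ± 0.204 RPKM were the lowest and the 2 members that did not reach 20 reads in at least 2 libraries, so that 35 were tested. The chosen transcript was a fragment under 1000 bases for 16 members and differed from the transcript holding the most reads for 21, and a short dense fragment gives a higher level than the whole gene. With the transcripts of most reads the order was Gabarap (129 RPKM), Gabarapl1 (80.4), Sqstm1 (76.5), Map1lc3b (42.4), Atg9a (30.3) and Bnip3 (29.04). The coefficient of variation over the 8 libraries ran from 8.94% for Atg5 to 52.5% for Atg4a, and Gabarapl1 stood at 43.7%. Of the tested members, 26 had a fitted 24-h fold under 1.5, 7 one of 1.5 to under 2 and 2 one of 2 or more, where the classes held 72.9%, 19.98% and 7.07% of all genes tested.

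**Figure D1:**
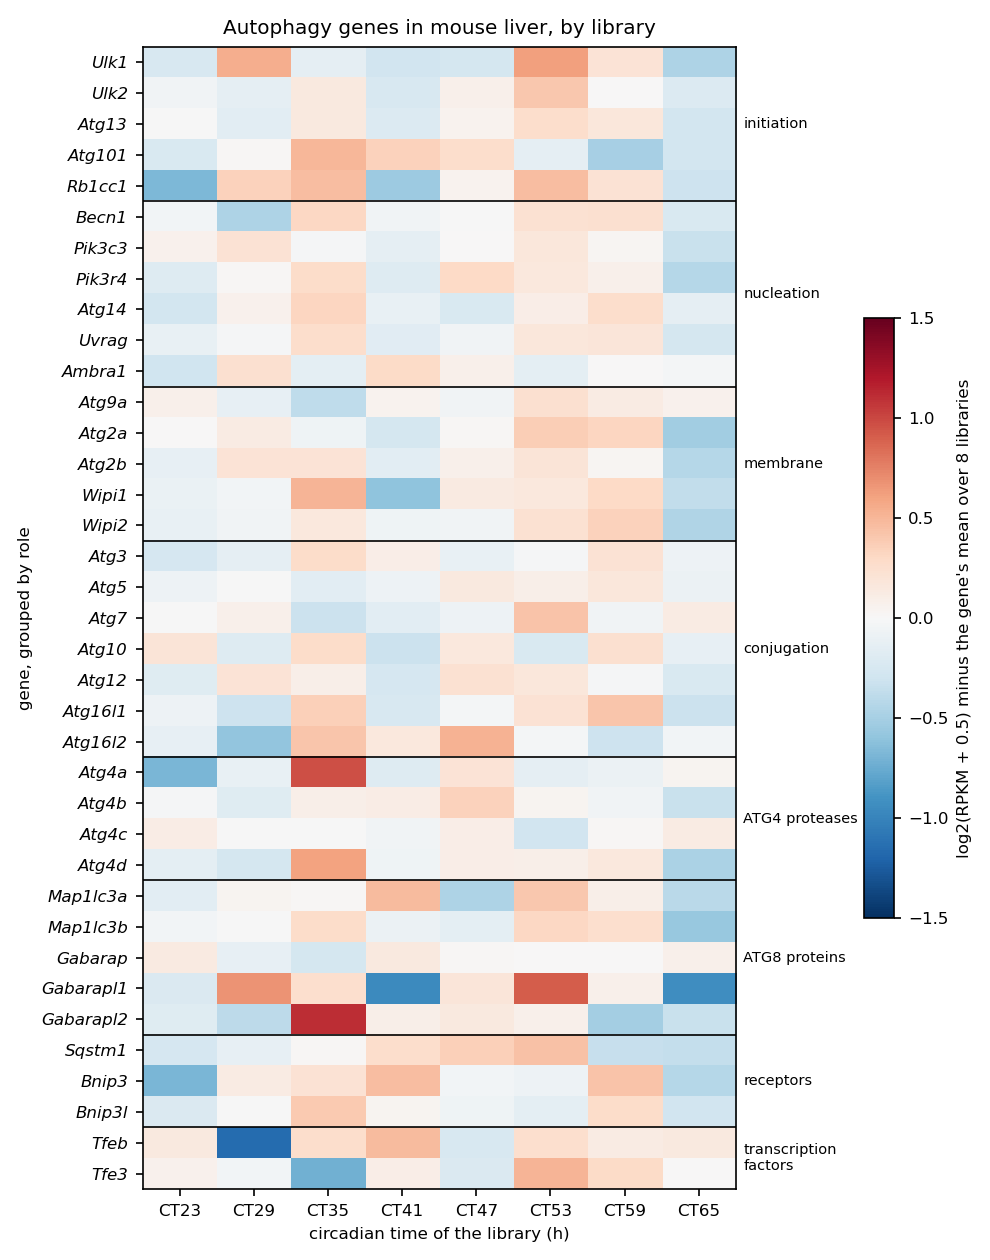
Each row is 1 of the 37 genes, grouped by role, and each column is 1 library; colour gives log2(RPKM + 0.5) minus the gene's mean over the 8 libraries. Gabarapl1 and Ulk1 are red in CT29 and CT53, and Gabarapl1 is dark blue in CT41 and CT65; the row of Gabarapl2 is darkest in CT35.

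The question the design poses is which of these transcripts follow the 24-h cycle in the absence of light. A cosine of period 24 h was fitted to log2(RPKM + 0.5) of every gene with limma, and the fold given is fitted peak over trough. Gabarapl1 passed at an adjusted p under 0.05 and the other 34 members did not (1 of 35), while 200 of 10870 genes tested passed, which is 1.84%. At an unadjusted p under 0.05 there were 4 members (Gabarapl1, Ulk1, Rb1cc1 and Atg14), against 15% of all genes. The median fitted log2 peak over trough was 0.42 over the members and 0.40 over all genes tested. Fitted peaks lay nearest to CT5 for 16 members (45.7%, against 34.8% of all genes), CT11 for 10, CT17 for 5 and CT23 for 4.

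**Figure D2:**
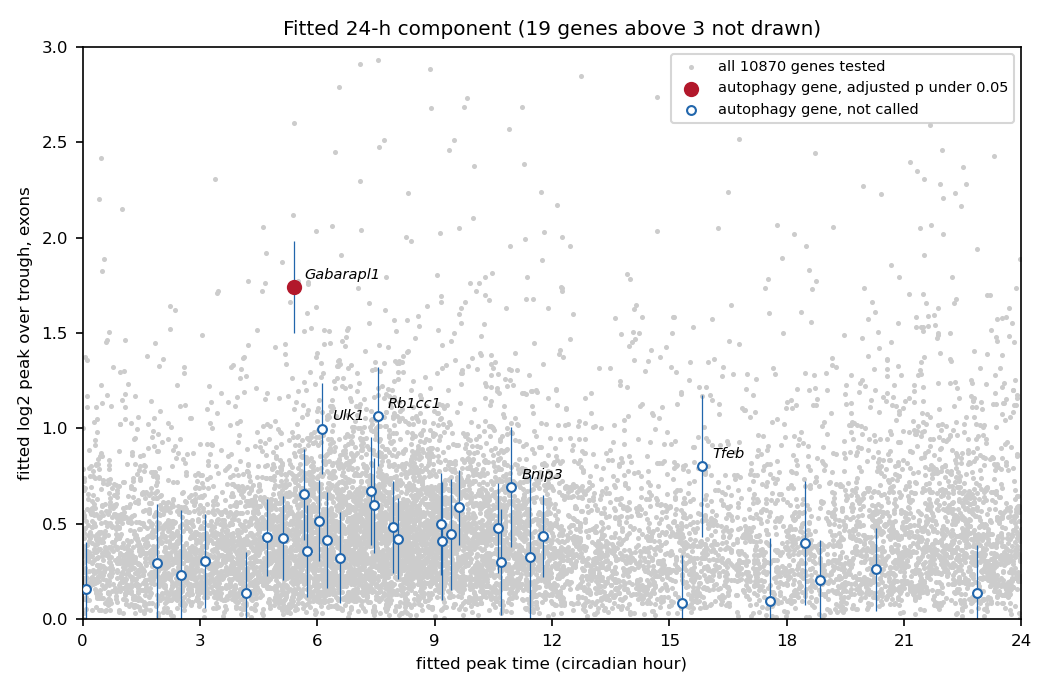
Fitted log2 peak over trough (y, with its SE for the 35 tested autophagy genes) is plotted against the fitted peak time (x, circadian hours); grey points are all 10870 genes tested, and 19 genes above 3 are not drawn. Gabarapl1 sits alone among the autophagy genes at 1.74, and Rb1cc1 and Ulk1 follow at 1.06 and 0.999.

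Among the ATG8 proteins, which coat the autophagosome membrane and bind receptors, Gabarapl1 (NM_020590 in the files, 4 exons, 1773 bases, mm9 chromosome 6, 129483210 to 129492349, plus strand) showed a daily swing. It measured 63.3, 118, 87.7, 37.6, 83.6, 138, 77.4 and 38.2 RPKM from CT23 to CT65 in order of time. Both CT5 libraries were the highest of the 8 and both CT17 libraries the lowest, with CT11 and CT23 between, so the phases CT5 and CT17 did not overlap on either day. The fitted fold was 3.35 (log2 1.74, SE 0.24) with a peak at 5.39 h (SE 0.53) and an adjusted p of 0.00998 (limma, Benjamini-Hochberg). CT5 exceeded CT17 by 1.73 on the log2 scale (SE 0.24, adjusted p = 0.0095), where 0.635% of all genes were called in either direction and 0.377% as higher at CT5. At an unadjusted p under 0.05 the members were Gabarapl1, Ulk1, Rb1cc1, Atg2a and Atg2b, against 12% of all genes. All genes tested had a median shift of 0.11 at CT5 against CT17, and after trimmed-mean (TMM) rescaling, which removes that shift, Gabarapl1 remained higher by 1.60. The call of the 24-h component was lost without CT41 (adjusted p = 0.0625), without CT53 (0.0567) and with no low-read filter (0.0611), and that of CT5 against CT17 also without CT29 (0.0602).

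The same pattern ran along the gene. The 4 exons of Gabarapl1 had 113, 547, 680 and 135 RPKM in CT29 and 99.0, 537, 718 and 172 in CT53, against 34.2, 182, 219 and 44.3 in CT41 and 32.6, 169, 222 and 47.1 in CT65. Every exon was thus higher in both CT5 libraries than in both CT17 libraries. Reads spliced across its 3 introns, which do not use the transcript densities but come from the same libraries, numbered 521, 1056, 1138, 294, 789, 990, 540 and 355 in order of time, the CT35 count standing in a deeper library (14749911 junction reads, against 5270743 to 6227130 in the others). Gabarapl1 was the 1 of 32 members tested in junction reads that passed (fold 3.02, peak 4.08 h, edgeR adjusted p = 0.00723), where 1.62% of 7387 genes did; without CT41 the call was lost (0.0559). At an unadjusted p under 0.05 it was joined by Ulk1 and Rb1cc1, against 12.9% of all genes. Intron reads measured 1.67, 2.01, 1.14, 0.998, 1.87, 2.83, 1.68 and 1.05 RPKM, highest in the CT5 libraries and lowest in CT41 and CT65. Their fitted fold was 1.95 with a peak at 3.95 h, which did not pass (limma adjusted p = 0.197) and passed with edgeR on the recovered intron reads (adjusted p = 0.0232, peak 4.77 h). CT35 had the lowest share of reads in introns (6.94%), and without CT35 the intron peak lay at 4.63 h. The part of that share in intron folds and peaks was not tested.

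**Figure D3:**
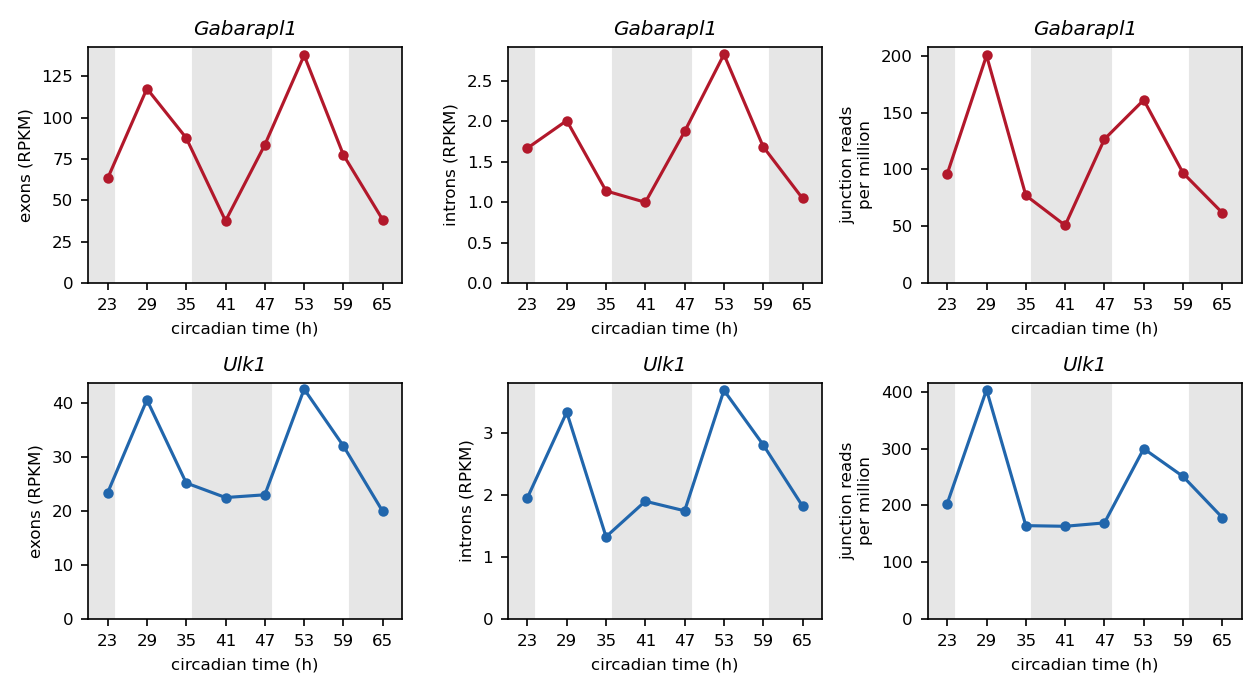
Values of Gabarapl1 (upper row) and Ulk1 (lower row) by library are drawn for exons (RPKM), introns (RPKM) and junction reads scaled to library depth; each point is 1 library and grey bands mark the subjective night. Exon values of both genes are highest at CT29 and CT53, at 118 and 138 RPKM for Gabarapl1 and 40.6 and 42.6 RPKM for Ulk1.

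Gabarap, the founding member of its subfamily, measured 252, 211, 192, 255, 232, 232, 232 and 242 RPKM in order of time, with a fitted fold in exons of 1.20 (SE of log2 0.22, limma adjusted p = 0.787), the smallest of the ATG8 genes. In other readouts its fitted fold was larger and did not pass. Reads spliced across its 3 introns numbered 970, 582, 1059, 969, 855, 907, 828 and 1031 in order of time, CT35 being the deeper library. The counted reads gave a fold of 1.73 with a peak at 19.995 h (edgeR adjusted p = 0.46), the second largest of the ATG8 genes in junction reads. Introns of Gabarap gave 1.88 (limma adjusted p = 0.795), with CT35 lowest at 1.47 RPKM. Its CT5 libraries (211 and 232) lay below both CT17 libraries (255 and 242), and it was the 1 tested member with that order (12.1% of all genes). After TMM rescaling 4 members had it, Gabarap among them, where 22.2% of all genes did. Gabarap and Gabarapl1 together held most of the summed ATG8 density: the share of Gabarapl1 was 30.1% in CT29 and 30.7% in CT53, against 10.4% in CT41 and 11.8% in CT65, while that of Gabarap was 53.9% and 51.7%, against 70.8% and 74.6%. With the transcripts of most reads the share of Gabarapl1 was 40.5% and 40.9% in the CT5 libraries, against 15.8% and 18.1% in the CT17 libraries, so there the order of the phases was the same. In CT29 and CT53 Gabarapl1 then had about the density of Gabarap, at 40.5% against 40.4% of the family in CT29 and 40.9% against 38.4% in CT53.

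The chosen Gabarap transcript has a splice that the reads barely use. Its intron between exons 2 and 3 had 2 junction reads over the 8 libraries, while 3690 reads joined exon 2 to a start of exon 3 that lies 94 bases earlier, which belongs to another annotated transcript. Map1lc3b, the LC3 gene most used to follow autophagosomes, measured 28.0 RPKM in CT65 to 51.8 RPKM in CT53 and peaked at 7.44 h with a fold of 1.51 (adjusted p = 0.44). Map1lc3a ran from 11.7 in CT47 to 22.9 RPKM in CT41 (adjusted p = 0.745). Gabarapl2 ran from 3.51 to 11.8 RPKM with the highest value in CT35, and its values counting every compatible read were 2.43 times those counting unique reads, the largest ratio of the 37, so part of its reads cannot be placed.

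**Figure D4:**
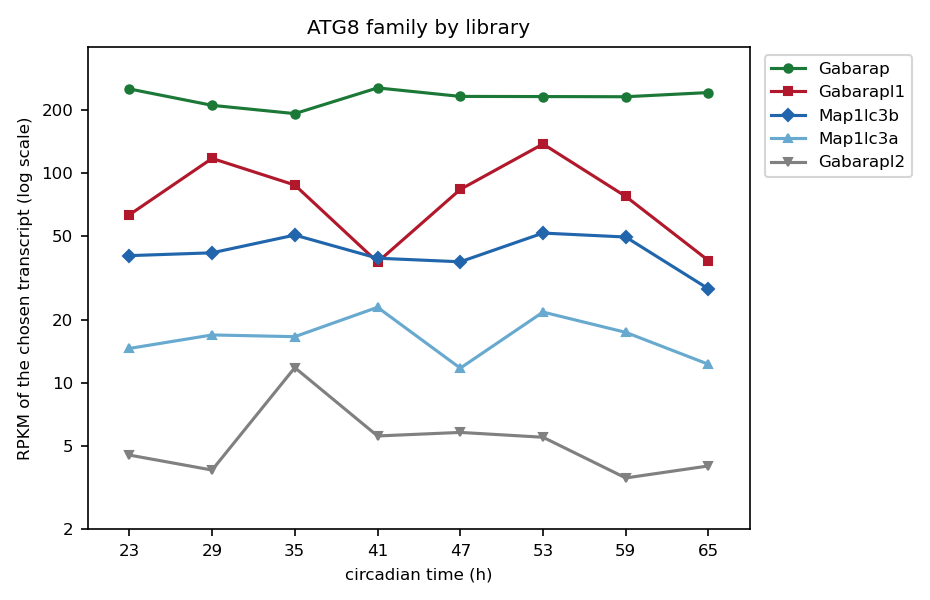
RPKM of the 5 ATG8 genes (log axis) is plotted against circadian time, 1 point per library. Gabarapl1 swings between 37.6 and 138 RPKM while Gabarap stays between 192 and 255 RPKM.

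Ulk1 encodes the kinase that starts autophagosome formation and is inhibited by mTORC1 and activated by AMPK. Ulk1 (NM_009469, 28 exons, 5196 bases, mm9 chromosome 5, 111213508 to 111239100, minus strand) measured 23.4, 40.6, 25.2, 22.5, 23.005, 42.6, 32.0 and 19.9 RPKM in order of time. Both CT5 libraries were again the highest, and the CT17 and CT23 libraries lay close together at 19.9 to 23.4 RPKM. The fitted fold was 2.00 (log2 0.999, SE 0.24) with a peak at 6.11 h (SE 0.92), and the adjusted p was 0.111 (limma), so Ulk1 was not called. It was called without CT35 (adjusted p = 0.0431) and with DESeq2 on the recovered reads (0.0404), and with edgeR it was not. CT5 exceeded CT17 by 0.96 on the log2 scale (SE 0.24, adjusted p = 0.112; 0.0412 without CT35). Its junction reads gave a fold of 1.88 with a peak at 5.54 h (edgeR adjusted p = 0.231; 0.0446 without CT35), and its introns 1.70 with a peak at 5.33 h (limma adjusted p = 0.603).

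CT35 differed in how reads lay along Ulk1, a comparison chosen after its values were seen. Exons 8 to 19 averaged 156 RPKM in CT35 and exons 24 to 27 averaged 46.2 RPKM, a ratio of 0.295. In the other 7 libraries that ratio was 0.0469 to 0.115, with 138.9 to 309.6 RPKM over exons 8 to 19 and 6.52 to 25.9 RPKM over exons 24 to 27. Exons 8 to 19 were highest in CT29 (309.6 RPKM) and CT53 (269 RPKM), then in CT59 (212 RPKM), and 138.9 to 158 RPKM in the other 5 libraries. Summed exon reads were 2.11 to 2.36 times the transcript's reads, so exon densities are not on the scale of the whole transcript. Exons 8 to 19 averaged above the transcript's density in every library, and exons 24 to 27 below it except in CT35. The part of the depth and intron share of CT35 in this difference was not tested.

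**Figure D5:**
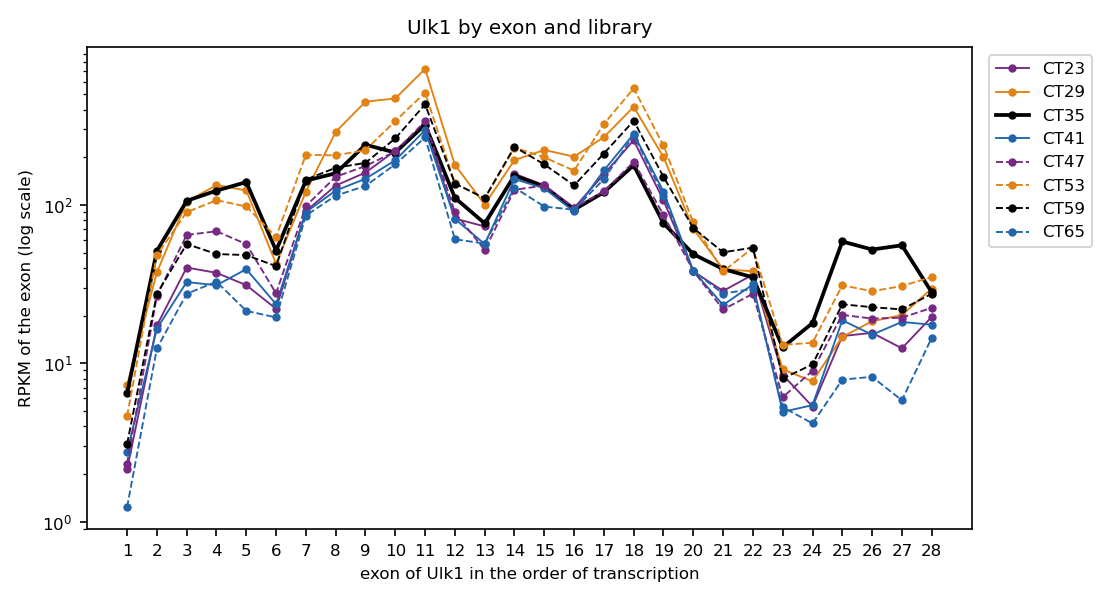
RPKM of each of the 28 exons of Ulk1 (log axis) is drawn for the 8 libraries, coloured by phase, with day 2 dashed and CT35 as the thick black line. CT29 and CT53 (orange) are highest over most of exons 8 to 19, and CT35 is highest over exons 24 to 27, where it averages 46.2 RPKM.

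The promoters of Gabarapl1 and Ulk1, in each of which both CT5 libraries were the highest of the 8, are shown with that of Bnip3, which holds an E-box, the site of the CLOCK and BMAL1 clock factors and of TFEB-type factors. They are the 250 bases before the gene start in RefSeq's GRCm38.p6, whose coordinates are not those of the mm9 files, written 5′ to 3′ on the gene's strand. Capitals mark GC boxes (GGGCGG or its complement CCGCCC) and the E-box CACGTG.
Gabarapl1 (chr6:129532942-129533191, plus strand): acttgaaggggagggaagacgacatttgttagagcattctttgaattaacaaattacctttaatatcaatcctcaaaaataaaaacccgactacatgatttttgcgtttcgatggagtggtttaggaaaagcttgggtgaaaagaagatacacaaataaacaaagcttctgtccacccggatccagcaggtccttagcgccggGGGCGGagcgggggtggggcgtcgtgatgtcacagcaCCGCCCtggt
Ulk1 (chr5:110810082-110810331, minus strand): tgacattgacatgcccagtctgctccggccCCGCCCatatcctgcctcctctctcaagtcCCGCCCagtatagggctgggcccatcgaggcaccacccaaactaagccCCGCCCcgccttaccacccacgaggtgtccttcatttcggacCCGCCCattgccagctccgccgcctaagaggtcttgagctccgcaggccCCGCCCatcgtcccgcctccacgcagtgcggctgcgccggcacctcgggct
Bnip3 (chr7:138909507-138909756, minus strand): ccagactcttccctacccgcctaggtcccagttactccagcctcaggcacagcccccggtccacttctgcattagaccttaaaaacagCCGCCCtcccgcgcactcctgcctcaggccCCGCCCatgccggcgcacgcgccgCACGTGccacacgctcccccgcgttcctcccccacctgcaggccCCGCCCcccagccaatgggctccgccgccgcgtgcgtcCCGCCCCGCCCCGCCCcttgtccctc
Promoter entries were matched for 30 of the 37 members (35 entries). The E-box was in 4 of the 35, those of Atg3, Atg5, Atg7 and Bnip3 (in Bnip3 with its first base 108 bases before the start), and in 6.02% of 32851 promoters of the same length. Its letters also lie inside the CLEAR palindrome of TFEB, the same letters with GT before and AC after them, which no member promoter held (0.24% of all). None held a D-box (TTATGTAA, 0.819% of all), the RORE core (TAGGTCA, 2.23%) or the FOXO element (GTAAACA, 3.17%), each searched on both strands. The CRE TGACGTCA was in that of Atg16l2 (1.55% of all) and the variant E-box CACGTT in that of Atg9a (3.85%). GC boxes were in 23 of the 35, or 65.7%, against 32.7% of all promoters. A match is a run of letters in this window and no record of binding.

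In the initiation complex the largest fitted swing was that of Rb1cc1, which encodes the scaffold FIP200. On a fragment of 898 bases, with 30 reads each in CT23 and CT41, it measured 2.57, 5.74, 6.28, 2.86, 4.58, 6.27, 5.21 and 3.45 RPKM in order of time. Both CT5 and both CT11 libraries lay above all CT17 and CT23 libraries. Its fold was 2.09 (log2 1.06, SE 0.26) with a peak at 7.54 h, and the adjusted p of 0.123 (limma, unadjusted 0.00564) did not pass. The transcript of most reads averaged 1.84 RPKM and kept that order narrowly, with CT53 at 1.84 and CT23 at 1.75 RPKM. Junction reads of Rb1cc1 gave 2.14-fold and a peak at 7.69 h (edgeR adjusted p = 0.321). Ulk2, a second ULK kinase, ran from 17.4 to 27.3 RPKM, Atg13, which ties ULK1 to FIP200, from 15.7 to 23.001, and Atg101, the partner of ATG13, from 3.80 to 8.07, and their adjusted p were 0.698, 0.736 and 0.985.

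The nucleation complex makes PI3P on the forming membrane. Becn1 (beclin 1) measured 35.03, 26.2, 44.99, 34.9, 36.2, 42.7, 42.8 and 30.9 RPKM in order of time on a fragment of 375 bases, and its transcript of most reads averaged 7.03 RPKM. On the fragment both CT11 libraries (44.99 and 42.8) were the highest, just above CT53 at 42.7. The other CT5 library was the lowest at 26.2, and the adjusted p was 0.82 (limma). With the transcript of most reads CT53 (8.26 RPKM) lay between CT35 (8.48 RPKM) and CT59 (7.73 RPKM). Atg14, which targets the complex to the forming autophagosome, ran from 2.32 RPKM in CT23 to 3.78 RPKM in CT35, with a fold of 1.502 and a peak at 9.63 h (unadjusted p = 0.0364, adjusted p = 0.292). Its CT23 libraries (2.32 and 2.41) were the 2 lowest and its CT11 libraries (3.78 and 3.60) the 2 highest, and CT23 was lower than CT11 by 0.55 on the log2 scale (SE 0.20, adjusted p = 0.262). Pik3c3, the lipid kinase VPS34, Pik3r4, its regulatory subunit, and Uvrag, which forms the complex of the endosomal route, averaged 2.92, 3.30 and 5.93 RPKM with folds of 1.35, 1.33 and 1.34. Both CT5 libraries of Pik3c3 (3.44 and 3.33 RPKM) were its highest. Ambra1, a regulator of beclin 1, averaged 8.14 RPKM with a fold of 1.06 (adjusted p = 0.977).

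Atg9a, the scramblase whose vesicles seed the membrane, measured 31.6, 27.5, 23.02, 31.2, 29.02, 35.6, 32.8 and 31.6 RPKM in order of time. Its lowest value was in CT35 and its highest in CT53, the phases overlapped, and its fold was 1.10 (adjusted p = 0.945). Atg2a and Atg2b, which carry lipid to the membrane, had folds of 1.57 and 1.43 with peaks at 5.67 and 6.05 h. Both CT5 libraries lay above both CT17 libraries for Atg2a (15.3 and 18.3, against 11.5 and 9.62 RPKM) and for Atg2b (3.43 and 3.41, against 2.55 and 2.03 RPKM), and neither passed (adjusted p = 0.301 and 0.377). Wipi1, a PI3P reader, ran from 3.91 in CT41 to 9.07 RPKM in CT35 with a fold of 1.59 and a peak at 7.37 h, and its paralog Wipi2 from 12.0 to 21.1 RPKM with a fold of 1.40 (adjusted p = 0.439 and 0.541).

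None of the 6 conjugation genes tested passed. Atg3, the E2-like enzyme that hands ATG8 to the lipid, measured 12.7, 13.9, 18.5, 16.4, 14.0, 15.0, 17.8 and 14.5 RPKM in order of time. Its CT11 libraries (18.5 and 17.8) were the 2 highest and its fold was 1.35 with a peak at 11.8 h (adjusted p = 0.53). Atg5, the acceptor of ATG12, stayed between 9.29 and 11.8 RPKM, and Atg7, the E1-like enzyme of both branches, between 6.23 and 10.9 RPKM, with folds of 1.10 and 1.24. Atg12 ran from 4.53 to 6.47 RPKM, and Atg16l1, which places the ligase on the membrane, from 8.68 to 14.9 RPKM with both CT11 libraries highest. These Atg16l1 values rest on a fragment of 332 bases with 35 to 108 reads a library. With its transcript of most reads CT35 was highest (7.43 RPKM), but CT59 (5.43 RPKM) lay below CT53 (7.11 RPKM) and CT47 (5.59 RPKM). Atg16l2 ran from 3.00 to 7.06 RPKM, and Atg10, the E2-like enzyme of ATG12, stayed under 1 RPKM throughout.

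The ATG4 proteases trim ATG8 before conjugation and free it afterwards. Atg4d was the most abundant at 4.84, 4.42, 8.52, 5.15, 5.83, 5.79, 6.09 and 3.77 RPKM in order of time, with the highest value in CT35. Of its exon bases, 31.2% overlap Kri1 on the other strand, and the library kit named in the labels' protocols does not mark strand, so these reads cannot be told apart. Atg4b ran from 3.26 to 5.52 RPKM, Atg4c from 1.93 to 2.71 RPKM and Atg4a from 0.552 to 2.83 RPKM, and the 3 that were tested had folds of 1.11 to 1.36.

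Sqstm1 encodes p62, which binds ubiquitinated cargo and is itself degraded by autophagy. It measured 140, 152, 169, 199, 213, 225, 131 and 130 RPKM in order of time on a 2-exon fragment of 457 bases. The values of 1 phase differed widely between the days, such as 199 RPKM in CT41 and 130 RPKM in CT65, and the fold of 1.23 did not pass (adjusted p = 0.851). Its transcript of most reads measured 69.8, 85.5, 67.1, 73.7, 96.98, 102, 60.97 and 55.999 RPKM, with both CT5 libraries above both CT17 libraries. There CT5 exceeded CT17 by 0.54 on the log2 scale (limma adjusted p = 0.346), against 0.20 on the fragment, and the 24-h swing was 0.65 (adjusted p = 0.317), against 0.29. Bnip3, a mitophagy receptor of the outer mitochondrial membrane, ran from 50.3 RPKM in CT23 to 112 RPKM in CT41, and its CT23 phase was lower than CT11 by 0.69 on the log2 scale (SE 0.31, adjusted p = 0.397), a difference of -0.42 without CT23 and -0.93 without CT47. Its transcript of most reads ran from 18.99 RPKM in CT23 to 43.7 RPKM in CT59, with CT41 at 31.8 RPKM. There the difference was -0.80 (limma adjusted p = 0.118) and the 24-h component peaked at 11.3 h (adjusted p = 0.169). The chosen Bnip3 fragment of 293 bases contains an intron with 0 junction reads in all 8 libraries, where 3 reads in a library would be the limit a count of 0 allows, while a junction of another transcript had 1155 reads. Intron reads of Bnip3 were 0.0733, 0.301, 0.221, 0.163, 0.0518, 0.261, 0.122 and 0.0688 RPKM, highest in both CT5 libraries. These densities rest on 7 to 53 reads a library and all lie under the 0.5 RPKM added before the logarithm. Their adjusted p was 0.1 (limma; unadjusted 0.00309; peak 7.398 h), and it was 0.0322 with the transcript of most reads, 0.0076 without CT41 and 0.0375 without CT59. With any other single library left out, Bnip3 introns did not pass in limma. No member passed in introns in the limma fit (0 of 26), where 2.05% of 5817 genes did, and edgeR called 1, Gabarapl1. Bnip3 and Gabarapl1 had an unadjusted p under 0.05 (limma), against 10.9% of all genes. Bnip3l, the related receptor NIX, ran from 15.7 to 25.4 RPKM with both CT11 libraries highest (adjusted p = 0.538).

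Tfe3 and Tfeb encode factors that, when dephosphorylated, enter the nucleus and switch on lysosome and autophagy genes. Tfe3 measured 17.3, 16.1, 9.87, 17.7, 14.2, 23.8, 20.3 and 16.7 RPKM in order of time. On this fragment of 372 bases its lowest value was in CT35, while CT59 of the same phase was the second highest. The fold of 1.17 did not pass (limma adjusted p = 0.92). With the transcript of most reads CT35 was again lowest (4.95 RPKM), and CT59 (7.39 RPKM) lay below CT53, CT47 and CT23. Tfeb ran from 2.31 RPKM in CT29 to 8.18 RPKM in CT41, with 6.95 RPKM in CT53, so the 2 CT5 libraries differed more than the phases. Its fold of 1.74 at 15.8 h did not pass (limma adjusted p = 0.5). These values rest on a fragment of 324 bases with 9 reads in CT29 and 28 in CT53. The Tfeb transcript of most reads ran from 1.68 RPKM in CT29 to 3.51 RPKM in CT59.

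Over all members, both CT5 libraries exceeded both CT17 libraries for 16 of 35, where 33.5% of all genes did. After TMM rescaling this held for 12, where 22.2% of all genes did, and the median of CT5 minus CT17 was 0.07 over the members and 0.00 over all genes, against 0.20 and 0.11 as deposited. Both CT23 libraries lay below both CT11 libraries for 15 members (25.2% of all genes) and above them for 2 members, Atg4c and Gabarap (16.8%). After TMM rescaling they lay below for 13 members (21.3% of all genes) and above for 2, Atg4b and Atg4c (20.7%). Gabarap then no longer had that order. No member passed in CT23 against CT11 (limma, 0 of 35, where 1.32% of all genes passed). There 3 members and 1365 of 10870 genes had an unadjusted p under 0.05. edgeR called 0 members and 195 genes, and DESeq2 0 members and 357 genes. A 12-h component passed for 0 members and 0 genes (0%) in limma. At an unadjusted p under 0.05 were 867 genes, among them Wipi1 of the members, and edgeR called 0 and DESeq2 22 genes, none of them members. The second day differed from the first for 0 members and 0 genes (0%; limma). At an unadjusted p under 0.05 there were 0 members and 257 genes, and edgeR called 0 and DESeq2 1 gene, not a member.

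Other genes of the pathway were taken from 5 lists. None of 36 tested lysosome and CLEAR-network genes passed the 24-h test (limma; 1 at an unadjusted p under 0.05); Lamp1 and Lamp2, the membrane proteins of the lysosome, stayed between 244 and 319 and between 183 and 267 RPKM. Of 31 genes of mTORC1 and AMPK control, 1 passed: Ddit4 (REDD1), an inhibitor of mTORC1, measured 1.28, 0.691, 1.92, 1.93, 1.75, 0.429, 1.36 and 2.87 RPKM in order of time and peaked at 16.8 h with a fold of 2.72 (adjusted p = 0.0365, lost without CT23, CT29, CT53, CT59 or CT65, up to 0.154). Its 2 lowest libraries were those of CT5, where Gabarapl1 was highest.

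Of 22 further receptors and adaptors, Retreg1 (FAM134B), a receptor for autophagy of the endoplasmic reticulum, passed. It measured 9.48, 22.5, 14.9, 9.42, 9.93, 22.4, 15.1 and 7.94 RPKM, with both CT5 libraries highest, and its fold was 2.75 with a peak at 6.63 h (adjusted p = 0.0189, lost without CT23, CT29, CT53 or CT65, up to 0.0838). None of 30 further membrane, PI3P and fusion factors passed (limma; 3 at an unadjusted p under 0.05), Rab7 and Vmp1 among them. Of 19 transcription factors reported upstream of autophagy genes, 3 passed: the clock repressors Nr1d1 and Nr1d2, with peaks at 6.65 and 8.58 h, and Foxo3, with 3.83, 7.48, 10.0, 5.33, 3.92, 7.57, 9.15 and 4.49 RPKM in order of time, a fold of 2.52 and a peak at 9.30 h (adjusted p = 0.0183, lost without CT23, CT53 or CT59, up to 0.0851). Both CT23 libraries of Foxo3 were its lowest and both CT11 libraries its highest. Over the 5 lists, the counts that passed stand against 1.84% of all genes. At an unadjusted p under 0.05 (limma) were also 5 of the 31 mTORC1 and AMPK genes and 4 of the 22 receptors and adaptors. Of the 19 transcription factors, 7 were. The unadjusted counts of the 5 lists stand against 15% of all genes.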

How the data were processed

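Poly-A RNA of mouse liver was sequenced as paired ends at 8 circadian times, 1 library of 3 pooled animals each, per the labels' protocols. The authors deposited, per library, a density for each transcript, exon and intron as a lower value (unique reads) and an upper value; per the file headers these carry no unit, and they are read here as RPKM because density times length gave whole reads for 99.98% to 99.995% of values above 0 (within 0.1 read), but the authors' step is not stated. They also deposited read counts per splice junction. The build was mm9, per the submitters' processing notes; the sources used here name neither the aligner nor the annotation.

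Transcripts were named by RefSeq or Vega identifier (79845 of 115699, 69.0%) through RefSeq GRCm38.p6 and GENCODE tables, giving 24196 genes, each with the transcript of the largest summed lower value. Genes with 20 reads in at least 2 libraries were tested. limma 3.58.1 (trend, robust) was fitted to log2(RPKM + 0.5) with a 24-h cosine and sine from CT23 (5 residual degrees of freedom); folds are on that scale and understate changes of low values, introns most. A 12-h term left 4 and a day term 3 degrees of freedom. Junction counts were tested with edgeR 4.0.16 (quasi-likelihood, TMM); introns were those clear of any exon. DESeq2 1.42.0 and edgeR on the recovered reads, other pseudocounts, filters, scalings and each library left out were alternatives. The transcript with the most reads and a day block were added after seeing the data. Since counts are per density, the planned count test of exons served as an alternative. p-values were adjusted by Benjamini-Hochberg over all genes tested. With 1 pool per time, they rest on the scatter of the pools about the fitted model. That scatter mixes differences between pools with misfit of the model. The fits were tested on simulated data.

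Members, lists and comparisons were chosen with earlier results of these data known. All 37 members are described by role, with the value in each library for members called and for the most abundant member of each role. Rb1cc1, Bnip3 introns, Gabarap junction reads and second transcripts of Atg16l1, Becn1, Rb1cc1, Sqstm1 and Bnip3 were added after their values were seen. From other lists up to 4 called genes and up to 2 of the highest uncalled are named. Promoter sequences are RefSeq's (GRCm38.p6).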

Additional observations from a re-analysis of the deposited data

Results flagged for a closer look

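Of the reads spliced within the 37 genes, 67855 lay on 327 introns of the chosen transcripts, 8049 on 32 introns of other annotated transcripts and 484 on 157 introns of none. No comparison used the last kind, and 9 of these junctions, each seen in at least 6 of the 8 libraries, had 11 to 57 reads in total. The limit of 3 reads that a count of 0 allows is for 1 library. Not all of the 9 exceeded it in any library. In Gabarap a junction inside the last exon had 57 reads over all 8 libraries, 3 to 10 a library. In Atg5 a junction that joins the donor of 1 annotated intron to the acceptor of the next, so that it skips an exon, had 47 reads, and another, whose end lies 4 bases from an annotated one, had 11. In Atg9a 45 reads used a splice site 3 bases from the annotated one, whose own intron had 40 reads. In Ulk1 26 reads shared 1 splice site with an annotated intron of 418 reads. Atg2a had 2 such junctions with 25 and 18 reads, Atg4d 1 with 16 and Atg101 1 with 13. None was tested by time.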

How the results depend on the processing

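The counts of members called moved in 4 results. For the 24-h component in exons, 1 member was called, against 0 with no low-read filter, 2 with DESeq2 and 0 to 2 with 1 library left out (0 without CT41 or CT53, 2 without CT35). For CT5 against CT17 it was 1, against 0 with no low-read filter and 0 to 2 with 1 library left out (0 without CT29, CT41 or CT53, 2 without CT35). In introns it was 0, against 1 with edgeR, 1 with the transcript of most reads and 0 to 1 with 1 library left out (1 without CT41 or CT59). In junction reads it was 1, against 0 to 2 with 1 library left out (0 without CT41, 2 without CT35). The cause was not tested.

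Counts over all genes moved further. The 24-h component had 200 calls, against 25 with no low-read filter, 576 with DESeq2, 351 with the transcript of most reads and 87 to 270 with 1 library left out. CT23 against CT11 had 144, against 24, 357, 231 and 32 to 159 in the same settings, and CT5 against CT17 had 69, against 0, 206, 139 and 5 to 174. The share of those 69 higher at CT5 was 41 genes, against 27 of 60 after TMM rescaling and 40 of 97 with edgeR. The 12-h component had 0 calls, against 22 with DESeq2. Introns had 119, against 0 with no low-read filter, 247 with edgeR and 182 with the transcript of most reads. Junction reads had 120, against 277 with DESeq2, 220 with no low-read filter and 51 to 164 with 1 library left out.

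Of 3615 member values in these settings, 207 turned round in sign, or in peak time by over 6 h, none of them of a called value. Among the values given gene by gene, 24-h swings (log2) turned round for Ambra1 with the transcript of most reads (0.13). With 1 library left out they did so for Ambra1 without CT23 or CT41 (range over the 8 libraries 0.037 to 0.31), Atg9a without CT35 (0.11 to 0.29), Gabarapl2 without CT35 (0.31 to 0.86), Tfe3 without CT35 or CT53 (0.21 to 0.46), Atg101 without CT41 (0.029 to 0.43) and Atg4b without CT47 (0.079 to 0.28). CT5 minus CT17 of Sqstm1 did so without CT53 or CT65 (-0.065 to 0.49).

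With the day as a replicate block, added after seeing the data, members called stayed at 1 for the 24-h component, 1 for CT5 against CT17 and 0 for CT23 against CT11, and genes called were 141, 59 and 107. With 2 libraries a phase and 35 tested members, a missed threshold does not show a flat transcript.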
